A study of Mus musculus with 13 samples.

Results

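Accessible chromatin around 10 genes of blood and blood vessel cells was examined in E12.5 mouse embryos: *Tal1*, *Klf1*, *Lmo2*, *Spi1* and *Gata2*, which encode transcription factors of blood formation, and *Pecam1*, *Cdh5*, *Kdr*, *Tek* and *Sox17*, which have roles in endothelial cells. A region belonged to the set when its strongest summit lay within 50 kb of the body of 1 of these genes on GRCm38 (mm10). Of 1360342 accessible regions listed in 13 ATAC-seq libraries, 1184 met this rule, 78 to 107 per library. Joined over the 12 libraries that were compared, using the strongest 80000 regions of each, they made 148 consensus regions of 192870.

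ATAC-seq marks DNA that a transposase can reach. Each library was made from 50000 cells of the B6CBAF1 background, taken from distal forelimb (DFL), proximal forelimb (PFL) or forebrain (FB). Embryos were wild type (wt) or homozygous for allele 542, which carries a single extra copy of the distal limb enhancer II1 with a *LacZ* reporter in the T-DOM domain next to *HoxD*, was derived from 1 founder line and was bred from heterozygous adults. There were 2 libraries per tissue and genotype, each from tissue pooled over several embryos, and a single earlier wt DFL library was kept apart. No treatment was given, and the 10 genes are not targets of the allele.

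Blood formation in the embryo rests on a small group of transcription factors that act in shared complexes. TAL1, LMO2 and GATA factors bind DNA together at E-box and GATA sequences, KLF1 drives the red cell programme and the product of *Spi1*, PU.1, the myeloid one. Endothelial cells line every vessel, so a limb bud and a forebrain both contain them, as a minority among mesenchymal or neural cells, and circulating red cells and early macrophages come with the vessels. The receptors KDR and TEK receive the VEGF and angiopoietin signals, PECAM1 and CDH5 join endothelial cells to each other, and SOX17 acts in arterial endothelium. In such mixed tissue, fewer cells of a type and less open chromatin per cell cannot be told apart.

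Sequences of some regions that differed between tissues are given first. Each is up to 300 bases centred on the strongest summit of a region, read 5′ to 3′ on the plus strand of GRCm38, without annotated UTR bases. Regions are numbered by position along the chromosome within the window of their gene. Capitals mark letters found on either strand, and matches of different kinds may overlap. A GATA match is AGATAA, and likewise the run TGATAA. An ETS match is CAGGAAG, and likewise the run CCGGAAG. A SOX match is ACAATGG, and likewise the run ACAAAGG. The E-box searched for is CAGATG, which TAL1 is known to bind, and the KLF match is CCACACCC. *Tek* region 7 (chr4:94738763-94739062) lies just before the gene's start and *Kdr* region 11 (chr5:75978459-75978670) before that of *Kdr*, and both were stronger in limb. *Tek* region 12 (chr4:94765272-94765571, intron), *Sox17* region 11 (chr1:4543982-4544281, intergenic) and *Cdh5* region 3 (chr8:104070486-104070785, intergenic) are among the limb regions. These were listed in all limb libraries and no FB library within the strongest 80000 regions. *Lmo2* region 3 was a further limb region, whose sequence is not printed here. Its window held 1 ETS and 1 E-box match. *Pecam1* region 4 (chr11:106639345-106639644, intergenic) is the strongest of the FB regions.
Tek region 7: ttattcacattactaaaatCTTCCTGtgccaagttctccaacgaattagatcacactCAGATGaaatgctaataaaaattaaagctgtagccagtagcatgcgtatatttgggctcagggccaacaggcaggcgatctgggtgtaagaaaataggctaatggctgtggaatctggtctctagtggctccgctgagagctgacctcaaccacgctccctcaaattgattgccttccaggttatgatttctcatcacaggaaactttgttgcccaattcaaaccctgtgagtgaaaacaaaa
Kdr region 11: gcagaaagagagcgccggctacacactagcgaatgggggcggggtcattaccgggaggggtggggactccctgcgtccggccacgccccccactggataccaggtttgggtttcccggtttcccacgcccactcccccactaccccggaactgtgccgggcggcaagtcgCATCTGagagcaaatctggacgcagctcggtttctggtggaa
Tek region 12: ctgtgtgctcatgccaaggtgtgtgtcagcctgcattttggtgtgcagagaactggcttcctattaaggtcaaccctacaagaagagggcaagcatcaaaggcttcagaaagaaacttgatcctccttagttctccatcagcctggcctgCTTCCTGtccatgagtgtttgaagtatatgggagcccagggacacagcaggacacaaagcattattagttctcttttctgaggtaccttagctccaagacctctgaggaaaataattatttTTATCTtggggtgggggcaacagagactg
Sox17 region 11: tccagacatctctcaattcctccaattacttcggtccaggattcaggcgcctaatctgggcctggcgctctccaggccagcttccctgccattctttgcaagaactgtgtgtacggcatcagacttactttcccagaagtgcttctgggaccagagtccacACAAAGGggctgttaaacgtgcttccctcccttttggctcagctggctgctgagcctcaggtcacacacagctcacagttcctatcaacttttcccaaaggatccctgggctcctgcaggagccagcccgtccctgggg
Cdh5 region 3: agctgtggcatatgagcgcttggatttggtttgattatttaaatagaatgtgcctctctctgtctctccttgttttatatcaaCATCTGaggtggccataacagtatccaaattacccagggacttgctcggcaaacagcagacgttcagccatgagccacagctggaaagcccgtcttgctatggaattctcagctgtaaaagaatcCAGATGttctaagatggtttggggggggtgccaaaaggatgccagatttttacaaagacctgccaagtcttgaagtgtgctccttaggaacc
Pecam1 region 4: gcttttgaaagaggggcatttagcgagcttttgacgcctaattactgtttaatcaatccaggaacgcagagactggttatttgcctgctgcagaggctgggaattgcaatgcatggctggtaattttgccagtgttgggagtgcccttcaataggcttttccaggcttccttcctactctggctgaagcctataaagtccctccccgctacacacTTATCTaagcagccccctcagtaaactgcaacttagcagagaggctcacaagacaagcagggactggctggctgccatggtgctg

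These letters describe the windows and are not evidence of a bound factor. *Tek* region 12 held 1 GATA and 1 ETS match, *Tek* region 7 held 1 ETS and 1 E-box match, *Cdh5* region 3 held 2 E-boxes, and *Pecam1* region 4 held 1 GATA match. Over all 148 windows of 300 bases, an ETS match was found in 23.6%, against 14.2% of the windows of all 192870 consensus regions. The GATA match was found in 17.6% against 21.8%, the E-box in 26.4% against 27.9%, the SOX match in 12.8% against 11.9% and the KLF match in 1.35% against 2.14%. The median GC content was 51.3% in the windows of the 10 genes and 46.3% in all windows. The share that GC content has in these differences was not tested.

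The depth estimated from the deposited values ran from 37500000 to 54500000 tags over the 8 limb libraries and from 51400000 to 70700000 over the 4 FB libraries, and was 78000000 for the earlier wt DFL library. wt libraries listed 98720 to 118297 regions and 542 libraries 85070 to 100425, so the numbers of regions were compared within the strongest 80000 of each library. The wt reads were aligned to mm10 and the 542 reads to a genome that holds the insertion, so genotype and mapping genome cannot be told apart. Marker genes of the labelled tissues were checked in the same way. Of 10 forebrain genes 6 had more regions in FB and none had fewer, where 8.63% of all genes had more and 7.6% fewer. But by fold, 3 of their 7 starts shared by all 12 libraries (*Lhx2*, *Dlx1* and *Neurog2*) were weaker in FB under limma. The start of 1 (*Pax6*) was stronger. Of all shared regions, 23.8% were weaker in FB and 16.0% stronger. Of 6 limb mesenchyme genes 2 had fewer regions in FB and none had more. Of their 5 shared starts, 2 were weaker in FB under limma (*Twist1*, log2 difference -1.27, and *Hand2*, -0.70). The start of *Hoxd13*, a distal limb gene, was stronger in DFL than in PFL by a log2 difference of 1.06 (SE 0.15, limma adjusted p = 0.00114). By number of regions neither *Hoxd13* nor *Hoxa13*, the other distal limb gene, passed between DFL and PFL (adjusted exact p = 0.647 and 0.675). Neither of 2 proximal limb genes, *Meis1* and *Meis2*, passed between DFL and PFL by number (adjusted exact p = 0.439 and 0.781), and *Meis2* had more regions in FB than in limb (adjusted exact p = 0.0293).

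The summed number of regions near the 10 genes overlapped between the tissues over both genotypes, while *Tek* and *Pecam1* each differed between FB and limb. Of the strongest 80000 regions, the DFL libraries had 75, 72, 66 and 70 near the 10 genes, the PFL libraries 68, 69, 73 and 75, and the FB libraries 68, 67, 73 and 73, in the order wt replicates 1 and 2, then 542 replicates 1 and 2, which is kept below. Over both genotypes the tissues overlapped, while within each genotype DFL and PFL did not, with DFL higher in wt and PFL higher in 542. That sets only 2 libraries against 2, and how many other genes show such a pattern was not counted. Taken by library over all deposited regions, 0.0797% to 0.0938% of regions lay near the 10 genes. Ranked by −log10 q within their own library, these regions had a median between the 45.8th and 60.5th percentile. By the shape of the summed number over the 12 libraries, the most similar genes of 3187 compared were *Stk40* (Pearson r = 0.83), *Fxr2* (r = 0.83) and *Sox15* (r = 0.82). These are descriptions over libraries that share list length and tissue.

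*Tek*, which encodes the angiopoietin receptor TIE2, showed the widest gap between tissues. Its window (gene body chr4:94739289-94874976, plus strand) held 14, 14, 10 and 12 regions for DFL, then 8, 10, 10 and 13 for PFL, against 5, 5, 5 and 4 for FB. Every limb library was above every FB library. The means were 4.75 ± 0.5 in FB (SD, n = 4) and 11.4 ± 2.2 in limb (SD, n = 8), a difference of -6.63 regions (exact permutation test over libraries, two-sided, p = 0.00404, adjusted p = 0.0293 over 20293 genes). *Pecam1*, which encodes an adhesion molecule of endothelial junctions, moved the other way. Its window (chr11:106654217-106750628, minus strand) held 8, 7, 7 and 8 regions for DFL, then 10, 10, 9 and 10 for PFL, against 11, 11, 12 and 13 for FB, so that FB again did not overlap limb. The means were 11.8 ± 0.957 in FB and 8.63 ± 1.3 in limb, a difference of 3.13 regions with the same exact p and adjusted p. Of the 10 genes 1 therefore had more regions in FB and 1 fewer, where 8.63% of all genes had more and 7.6% fewer.

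By the same exact test, the *Tek* call was also made with all deposited regions (difference -9.13, adjusted exact p = 0.037), the strongest 20000 (-1.38, adjusted exact p = 0.0428), within 20 kb (-5.38, adjusted exact p = 0.0346) and within 100 kb (-7.0, adjusted exact p = 0.024). It was not made with the strongest 50000 (-2.88, adjusted exact p = 0.0676) or at a −log10 q of at least 10 (-2.38, adjusted exact p = 0.103). The *Pecam1* call was lost under each of these 6 settings, with differences of 0.25 to 3.75 and adjusted exact p of 0.0501 to 1.0. Without 1 of the 4 FB libraries the difference was -6.38 to -6.71 for *Tek* and 2.71 to 3.38 for *Pecam1*. Their adjusted exact p of 0.0748 to 0.0777 was then the smallest of any gene, so with 3 FB libraries no gene passed. The earlier wt DFL library, with 6 regions near *Tek*, stood with FB rather than with the 14 and 14 of the other wt DFL libraries in this count. With all its deposited regions it had 14 near *Tek*, against 19 and 18 in the other wt DFL libraries and 10 and 6 in wt FB.

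**Figure D1:**
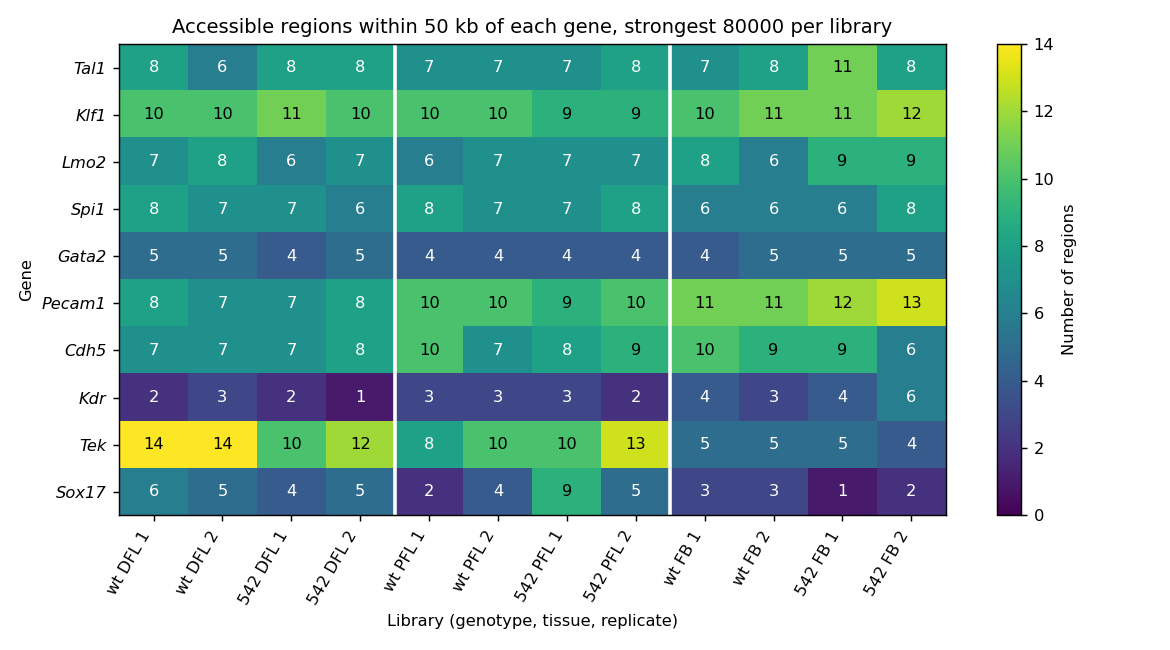
Number of accessible regions (colour and digits) within 50 kb of each gene (rows) in each of 12 libraries (columns, in the order DFL, PFL, FB), from the strongest 80000 regions per library. Near *Tek* the FB libraries hold 4 or 5 regions and the limb libraries 8 to 14, while near *Pecam1* FB holds 11 to 13 and limb 7 to 10.

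The other 8 genes did not pass the test between FB and limb. *Kdr*, the main VEGF receptor gene, had 4, 3, 4 and 6 regions in FB against 1 to 3 in limb (median 2.5), which met at 3 regions (adjusted exact p = 0.0827). *Sox17* had 3, 3, 1 and 2 in FB against 2 to 9 in limb (median 5, adjusted exact p = 0.0926). For the blood factors the ranges overlapped: *Tal1* had 7 to 11 regions in FB and 6 to 8 in limb, *Klf1* 10 to 12 and 9 to 11, *Lmo2* 6 to 9 and 6 to 8, *Spi1* 6 to 8 and 6 to 8, and *Gata2* 4 to 5 and 4 to 5. Some of them passed under other settings. *Tal1* and *Klf1* had more regions in FB with the strongest 50000 (differences 2.25 and 2.38, adjusted exact p = 0.0307 each) and at a −log10 q of at least 10 (2.88 and 2.63, adjusted exact p = 0.0289 each). *Klf1* and *Gata2* did so with the strongest 20000 (2.25 and 1.0, adjusted exact p = 0.0428 each), and *Klf1* within 100 kb (3.5, adjusted exact p = 0.024). *Cdh5*, the VE-cadherin gene, had 6 to 10 and 7 to 10. Within the limb, *Pecam1* had more regions in all 4 PFL libraries (9 to 10) than in any DFL library (7 to 8), a separation that 3.48% of genes showed in this direction and 3.03% in the other. Its exact permutation p was 0.0286, the smallest that 4 against 4 allows, and 0.439 after adjustment. No other gene of the 10 was separated between DFL and PFL, and none passed the test by genotype, where the smallest exact permutation p over the 10 genes was 0.167 and every adjusted p was 1.0. By this exact test no gene of all 20293 passed by genotype (0.0%), and 716 had an unadjusted p under 0.05.

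Start sites were not open at every gene of the set. A region with its summit within 1 kb of an annotated start was listed at any strength in all 12 libraries for 5 of the 10 genes, *Lmo2*, *Gata2*, *Kdr*, *Tek* and *Sox17*, and in none for 2, *Klf1* and *Pecam1*. Of 21853 protein-coding genes, 60.4% had such a region in all 12 libraries and 27.5% in none. For *Sox17* the region at a start with the highest mean fold, region 6, was weak. It was listed in 3 DFL, 1 PFL and 2 FB libraries at folds of 2.13 to 3.34, so the count for *Sox17* does not rest on this region alone. *Tal1* was missed in 1 library, 542 PFL replicate 1, and had folds of 2.93 to 5.73 elsewhere. For *Spi1* the listed start was one inside the gene (region 11, chr2:91096720-91096936, gene body from 91082390). It was listed in 1 DFL, 1 PFL and 1 FB library at folds of 2.81, 3.17 and 3.23. A start of *Cdh5* was listed in 2 libraries, and its region 10 (chr8:104110927-104111175) also lies inside the gene (body from 104101625). The start of *Klf1*, the red cell factor, had no region at all. A region in a coding exon 1280 bp downstream (region 4, chr8:84902580-84903710) was listed everywhere at folds of 11.4 to 16.1. Fold here is the deposited ratio of tags under the summit to the local background of the same library.

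Most of the 148 regions lay away from promoters: 122 were over 1 kb from any protein-coding start, 16 lay at starts of neighbouring genes and 10 at starts of the 10 genes. By annotation 66 were intronic, 51 intergenic, 12 in a UTR, 7 in a coding exon and the others in noncoding genes or exons. The regions found in all 12 libraries made up 20.3% of the 148, against 13.2% of all consensus regions. The share differed by position: 12 of the 16 regions at neighbours' starts were found in all 12 libraries, 2 of the 10 at own starts, and 16 of the 122 others. Over all consensus regions, the share was 71.4% within 1 kb of a coding start and 7.37% away from such starts. Neighbours' starts were close to the first share and own starts, only 10 regions, lay below it. The 122 others lay above the second share. These differences were not tested. *Klf1* sits among 6 other genes with a start in its window, and 6 of its 12 regions were theirs. The windows of *Kdr*, *Tek* and *Sox17* hold no start of another coding gene.

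**Figure D2:**
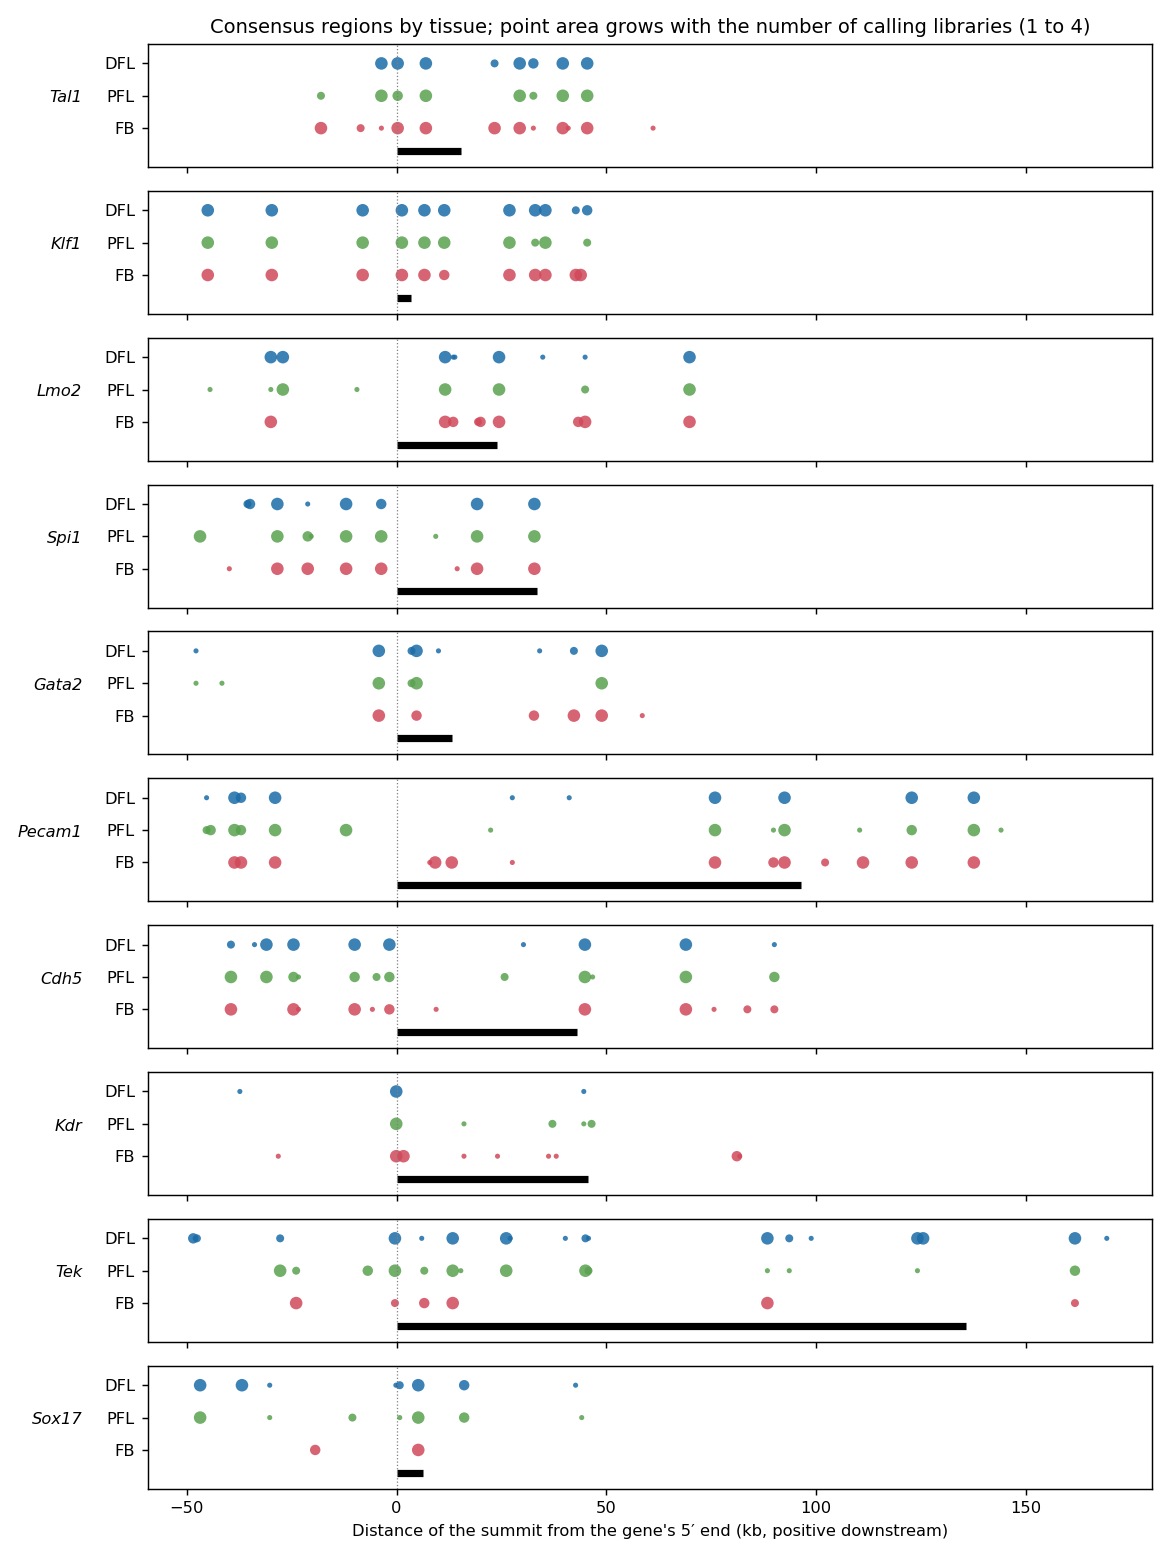
Position of each consensus region relative to the 5′ end of its gene (x axis, kb, positive downstream; black bar, gene body) for the 10 genes, by tissue. Point area grows with the number of libraries of the tissue (1 to 4) that list the region among their strongest 80000. *Tek* shows 19 regions for DFL, 14 for PFL and 6 for FB.

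The counts that follow are from the strongest 80000 regions of each library. Of the 23 regions near *Tek*, 19 were listed in at least 1 DFL library and 14 in at least 1 PFL library. In at least 1 FB library 6 were listed, and 17 were listed in limb and not in FB. None was listed in FB alone. *Sox17* was alike in kind, with 9 of 11 regions in limb and not in FB and 1 in FB and not in limb. Not being counted in FB did not mean being absent there. Among all deposited regions, *Sox17* region 11 was listed in 4 FB libraries at 2.28 to 2.98. *Sox17* region 6 was listed in 2 FB libraries at 2.35 and 2.47. *Kdr* had 7 of 13 regions in FB alone and 4 in limb alone. Of its 13 regions 6 were listed in a single library, as were 25.6% of all consensus regions. *Tal1* had no region that was listed in limb and not in FB and 3 that were listed in FB alone. These counts ignore how many libraries each tissue has, and limb has 8 against 4. The shares of all consensus regions listed in limb alone or in FB alone were not counted, so the counts are descriptions only.

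Complete separation of tissues was found for 9 regions between FB and limb. Of these, 5 were listed in all 4 FB and no limb library and 4 in all 8 limb and no FB library of the strongest 80000, 3.38% and 2.7% of the 148, where 7.71% and 4.41% of all consensus regions were separated in these directions. Each had an adjusted p of 0.0167 by Fisher's exact test over libraries. The strongest on the limb side was *Tek* region 12, in an intron 25903 bp downstream of the nearest start of the gene. Its fold was 9.92, 10.3, 11.2 and 12.4 over the DFL libraries, against 5.79, 4.67, 5.68 and 4.39 over the PFL libraries. No FB library listed it at any strength, and in the earlier wt DFL library it stood at 8.89. DFL was above PFL in every library. FB stayed empty under each alternative, but fewer limb libraries listed the region with the strongest 50000 (a difference of -75.0 percentage points, unadjusted Fisher's exact p = 0.0606), the strongest 20000 (-50.0, p = 0.208 by the same exact test), a −log10 q of at least 10 (-87.5, exact p = 0.0101) and a stricter overlap (-75.0, exact p = 0.0606).

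*Cdh5* region 3, 30990 bp upstream of that gene, was listed at 8.67, 5.66, 6.21 and 4.5 for DFL, at 4.9, 5.01, 4.4 and 4.79 for PFL, and again in no FB library at any strength. Its difference was -75.0 percentage points with the strongest 50000 (unadjusted Fisher's exact p = 0.0606) and -62.5 at a −log10 q of at least 10 (exact p = 0.0808). For 2 further limb regions FB was low rather than empty. *Lmo2* region 3, 27076 bp upstream of the gene whose product bridges TAL1 and GATA factors, had folds of 3.14 to 5.6 for DFL, of 3.65 to 5.54 for PFL, and wt FB replicate 1 listed it at 2.63. *Sox17* region 11, 46777 bp upstream, was at 9.66, 7.98, 9.46 and 10.0 for DFL, 7.24, 5.58, 6.66 and 4.77 for PFL, and lower, at 2.92, 2.98, 2.28 and 2.46 for FB once all deposited regions were read. The order DFL, PFL, FB held without overlap.

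On the FB side, 3 of the 5 regions belonged to *Pecam1*. Region 4, past the gene's 3′ end and 26071 bp from the start of *Tex2*, was at 9.93, 8.05, 9.96 and 8.0 in FB, and wt DFL replicate 1 was the only one of the 8 limb libraries to list it, at 2.78. Region 14, 9202 bp into the gene, was at 4.29, 3.69, 5.66 and 5.35 and in no limb library. *Kdr* region 10, in an intron 1657 bp downstream of the start, was weak but present in every FB library (3.06, 3.21, 3.28 and 3.46) and listed in no limb library. *Klf1* region 11 lies nearest the start of *Rtbdn*, 1187 bp away, and was at 6.77, 5.61, 5.69 and 5.74 in FB with 1 PFL library at 3.32.

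Between the parts of the limb, 2 regions were listed in all 4 DFL and no PFL library, where 2.22% of all regions were, and 2 in all 4 PFL and no DFL library, where 1.89% were. *Sox17* region 10 (chr1:4534007-4534371), 36818 bp upstream, was at 4.69, 5.25, 5.72 and 6.23 in DFL and unlisted in PFL and FB. *Tek* region 21 (chr4:94864463-94865046), in an intron near the end of the gene, was at 3.8, 4.27, 5.46 and 5.96 in DFL, unlisted in PFL and at 2.8 in wt FB replicate 1. The PFL regions both lie at neighbouring genes. *Pecam1* region 16 (chr11:106762152-106763061), in an intron of *Milr1*, was at 8.33, 7.69, 8.47 and 8.59 in PFL with wt DFL replicate 1 at 3.22, and *Spi1* region 1 lies 34 bp from the start of *Rapsn*, a gene of the neuromuscular junction, at 4.99, 5.73, 6.55 and 5.0, with 2 DFL libraries at 2.2 and 2.83. Fisher's exact test gave p = 0.0286 for each, 0.697 after adjustment. With the earlier wt DFL library added to the DFL group, neither DFL region was separated, although it listed them at 3.53 and 4.75 among all its regions.

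**Figure D3:**
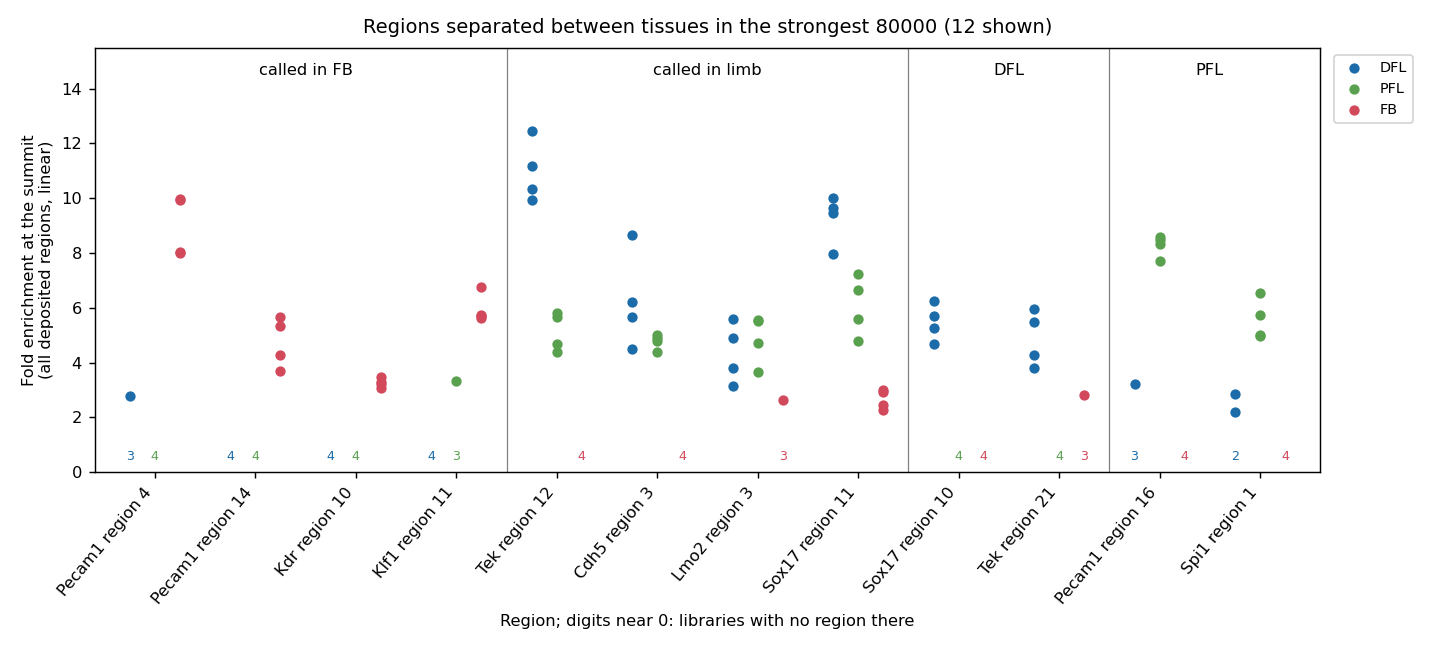
Fold enrichment at the summit (y axis, linear, from all deposited regions) in each of 12 libraries for 12 of the 13 regions separated between tissues in the strongest 80000. Points are libraries coloured by tissue, and digits near 0 count libraries that list no region there. *Tek* region 12 spans 9.92 to 12.4 in DFL and 4.39 to 5.79 in PFL with none in FB.

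The strength of regions that every library lists was compared with limma on log2 fold centred on each library's median. Of 28404 such regions 37 lay near the 10 genes, 8 of them near *Klf1*. Between FB and limb 7 were higher in FB and 5 in limb, 18.9% and 13.5% of the 37, where 16.0% and 23.8% of all shared regions passed in these directions. The 37 differences had a median of -0.0028 and ran from -1.67 to 0.74 on the log2 scale. The largest was *Sox17* region 11, whose FB values are given above (limb median 7.61), with a log2 difference of -1.67 (SE 0.13, limma adjusted p = 2.562e-07).

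Starts of both endothelial receptor genes were stronger in limb. The start region of *Tek* (region 7, chr4:94737337-94739642) had folds of 6.89, 8.96, 3.51 and 6.51 over the DFL libraries, 7.29, 7.49, 5.39 and 4.7 over the PFL libraries, but 2.45, 2.84, 3.17 and 3.39 over the FB libraries. Limb and FB did not overlap, and the log2 difference was -1.23 (SE 0.16, limma adjusted p = 2.827e-05), or a ratio of 0.425. The start region of *Kdr* (region 11, chr5:75977617-75978944) had 12.2, 13.0, 13.6 and 12.6 for DFL, then 13.3, 11.3, 13.2 and 8.93 for PFL, against 8.49, 8.96, 10.0 and 6.64 for FB. Here 542 PFL replicate 2 lay within the FB range, and the log2 difference was -0.71 (SE 0.12, limma adjusted p = 0.000247). *Kdr* thus had a weaker start in FB beside an intronic region, region 10, listed in FB alone. These 2 calls and that of *Sox17* region 11 held without any 1 of the 12 libraries. Under limma *Klf1* region 6, in an exon of *Dnase2a*, was also lower in FB (log2 difference -0.58, SE 0.17, adjusted p = 0.013), and lost its call without wt FB replicate 1 (adjusted p = 0.104) or 542 FB replicate 2 (adjusted p = 0.061), with quantile normalization (-0.34, adjusted p = 0.146) and without centring (-0.40, adjusted p = 0.0649).

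Among the regions higher in FB, *Pecam1* region 9 (chr11:106674105-106675194), intronic and 40187 bp from the nearest start, stood at 8.78, 8.62, 8.68 and 11.3 in FB and at 3.52 to 6.43 in limb (median 5.09). The groups did not overlap, with a log2 difference of 0.74 (SE 0.14, limma adjusted p = 0.000768). *Cdh5* region 4 (chr8:104076469-104077477), 24539 bp upstream of the gene, was at 8.52, 10.2, 8.48 and 7.54 in FB and 2.56 to 7.07 in limb (log2 difference 0.68, SE 0.16, limma adjusted p = 0.00358). It lies between region 3, found in limb alone, and the gene, so neighbouring regions of *Cdh5* differed in opposite directions. In the window of *Klf1* the FB regions were those of *Mast1*, a neural kinase gene: region 9 at its start (log2 difference 0.73, SE 0.12, limma adjusted p = 0.000349) and region 7 in an intron (0.60, SE 0.14, limma adjusted p = 0.00287).

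Smaller FB differences were found at blood factors. *Tal1* region 7 (log2 difference 0.54, SE 0.16, limma adjusted p = 0.017) and region 9 (0.33, SE 0.12, limma adjusted p = 0.0435) lie downstream of the gene, nearest the start of *Pdzk1ip1*. *Gata2* region 3 (0.35, SE 0.12, limma adjusted p = 0.0306), 4212 bp upstream, was at 10.5, 9.54, 9.04 and 7.97 in FB and 5.47 to 7.82 in limb, without overlap. Leaving out 1 library ended the call of *Tal1* region 9 in 8 of 12 runs (4 limb and all 4 FB libraries), of *Gata2* region 3 in 6 and of *Tal1* region 7 in 2 (wt FB replicate 2 and 542 FB replicate 1), with limma adjusted p up to 0.136, 0.132 and 0.0828. *Klf1* region 3, the start of *Gcdh*, passed at a log2 difference of -0.17 (SE 0.06, limma adjusted p = 0.0407), but its folds, 16.3 to 20.9 in FB and 18.0 to 23.5 in limb, overlapped, the call was lost in 9 of 12 such runs, and without centring its difference was 0.0027.

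Within the limb, 2 shared regions were higher in DFL and 1 in PFL, where 3.79% and 3.49% of all shared regions passed. *Cdh5* region 4 was at 6.01, 7.07, 5.8 and 6.23 for DFL against 4.79, 2.56, 4.39 and 3.2 for PFL, without overlap (log2 difference 0.72, SE 0.18, limma adjusted p = 0.0292). *Sox17* region 11 was higher in DFL by 0.56 on the log2 scale (SE 0.15, limma adjusted p = 0.0328). *Tek* region 10 (chr4:94752149-94753051), intronic, was at 6.15, 6.14, 4.24 and 7.18 for DFL against 8.92, 8.04, 8.96 and 8.19 for PFL (log2 difference -0.62, SE 0.16, limma adjusted p = 0.0284), and the FB libraries stood with PFL at 7.65 to 9.28. Every one of these 3 calls was lost in some runs without 1 library: that of *Cdh5* region 4 in 6 of 12 (limma adjusted p up to 0.109), of *Sox17* region 11 in 5 (up to 0.123) and of *Tek* region 10 in 7 (up to 0.0894), each time a DFL or PFL library. The call of *Tek* region 10 was also lost without centring (-0.55, limma adjusted p = 0.0533).

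**Figure D4:**
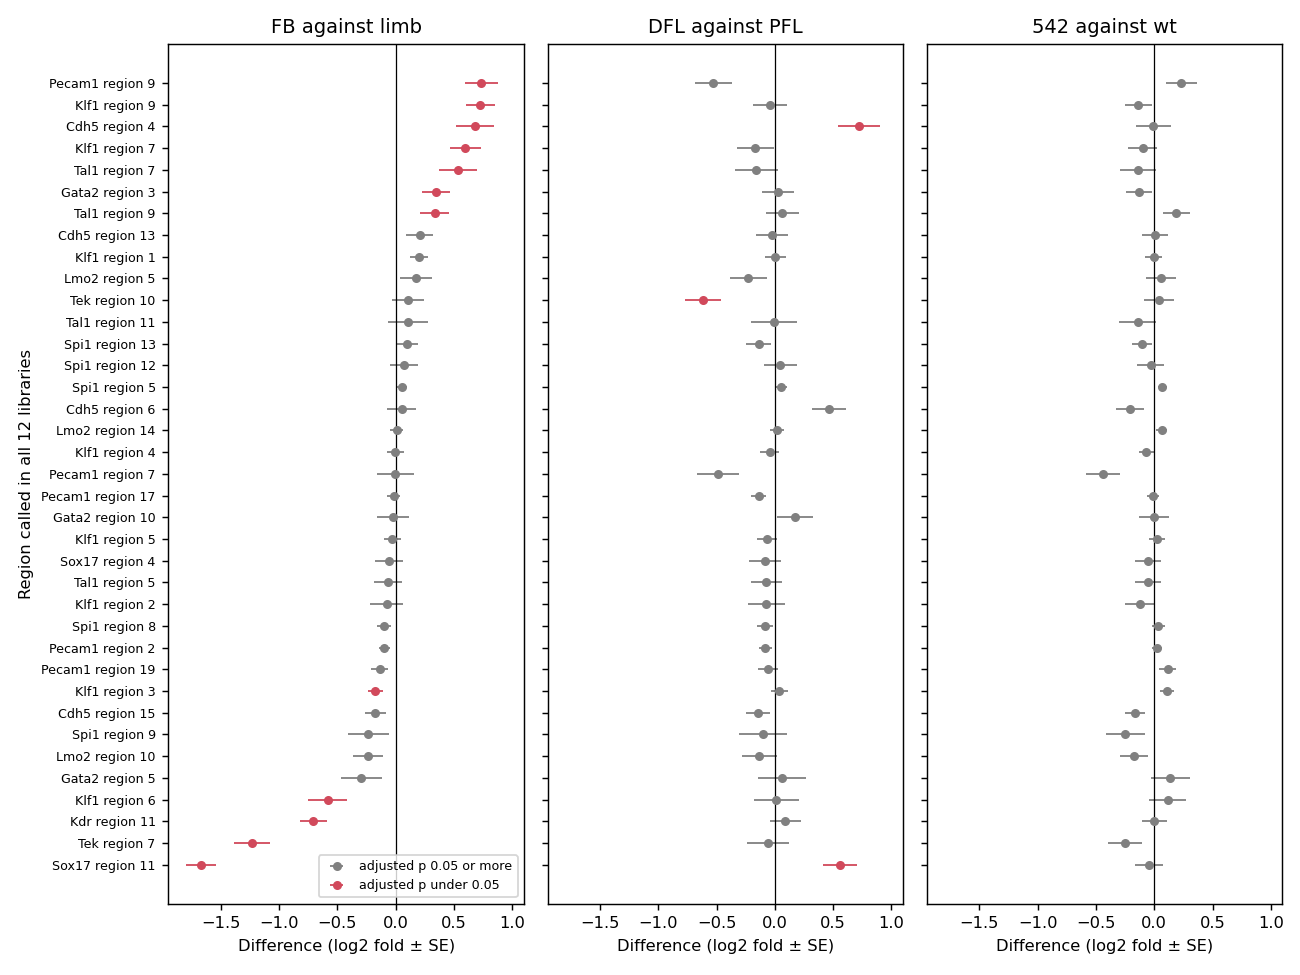
Difference in log2 fold (x axis, points; bars, standard error) for the 37 regions listed in all 12 libraries, for FB against limb, DFL against PFL and 542 against wt, from limma. Red marks an adjusted p under 0.05: 12 regions between FB and limb, 3 between DFL and PFL and 0 between genotypes.

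Allele 542 left the windows of the 10 genes without a detected difference. No consensus region near them was listed in all 6 libraries of 1 genotype and none of the other, where 0.0114% of all regions were separated towards 542 and 0.00778% towards wt. None of the 37 shared regions passed limma, where 0.433% of all shared regions were higher in 542 and 0.275% in wt, and 1 had an unadjusted limma p under 0.05. That was *Pecam1* region 7, at 3.87 to 7.16 in 542 (median 5.13) and 5.25 to 10.1 in wt (median 7.34), which overlapped (log2 difference -0.44, SE 0.15, limma adjusted p = 0.18). The 37 log2 differences ran from -0.44 to 0.23. The tissue differences did not differ between genotypes in any of the 37 at a limma adjusted p under 0.05 (lowest 0.448 for FB against limb and 0.458 for DFL against PFL), nor in any of all 28404 shared regions, while 2 and 4 of the 37 had an unadjusted p under 0.05.

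Other genes of the same cell types were counted from lists of known markers. Of all genes 8.63% had more regions in FB and 7.6% fewer, and the lists are too short to be set apart from these shares. Of 20 other endothelial genes, 1 had more regions in FB and 3 fewer. *Erg* and *Fli1*, which encode ETS factors of endothelium, had 6.5 ± 1.29 and 8.0 ± 0.817 regions in FB (SD, n = 4) against 16.8 ± 1.04 and 18.6 ± 2.5 in limb (SD, n = 8, adjusted exact p = 0.0293 each), *Eng* had 12.0 ± 2.16 against 16.3 ± 1.67 (adjusted exact p = 0.0498), and *Robo4* had 16.0 ± 1.15 against 10.9 ± 1.64 (adjusted exact p = 0.0293). The start of *Erg* went the other way, with a mean fold of 11.4 ± 0.795 in FB and 5.86 ± 1.13 in limb (log2 difference 0.80, SE 0.11, limma adjusted p = 5.152e-05). Starts of *Esam* were higher in FB (log2 difference 0.40) and of *Sox18* in limb (-0.61) under limma.

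Of 11 other erythroid genes 2 had more regions in FB, among them *Rhag* (6.5 ± 0.577 against 3.13 ± 0.835, adjusted exact p = 0.0293), and none fewer. The shares over all genes were 8.63% and 7.6%. Of 12 macrophage and leukocyte genes 2 had more, *Vav1* and *Cx3cr1*, and 1 fewer, *Runx1*, a factor that also acts outside blood, with 8.0 ± 0.817 regions in FB and 16.3 ± 2.05 in limb (adjusted exact p = 0.0293). The starts of 5 of these 12 genes, *Csf1r*, *Cx3cr1*, *Ptprc*, *Vav1* and *Itgam*, were listed in no library, as were those of 27.5% of all protein-coding genes. The same held for 2 of the 20 other endothelial genes and 2 of the 11 other erythroid genes. Over the lists, the summed number of regions was 146 to 158 in FB and 160 to 178 in limb for the endothelial genes, 81 to 96 and 72 to 81 for the erythroid genes, and 79 to 90 and 83 to 92 for the leukocyte genes. The part of vessel or blood cell content in these counts was not tested.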

How the data were processed

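The authors prepared ATAC-seq libraries from DFL, PFL and FB cells of E12.5 embryos. Per the labels and the study's methods, reads were trimmed with cutadapt, aligned with Bowtie to mm10 (wt) or to a mutant genome (542), freed of duplicates with Picard and turned into tags with bedtools, and peaks were called in each library alone with MACS2. The fold is the deposited ratio of tags under a summit to the local background. Each summit's −log10 p-value was deposited as MACS2 wrote it. So was its deposited −log10 q-value. The deposited score repeats the q-value and was not used. No count table was used and no value is scaled between libraries.

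Summits that share a start and end were taken as 1 region with its strongest summit, and positions beyond the insertion on chromosome 2 of 542 libraries were shifted back to mm10. Regions were annotated with GENCODE M21 (GRCm38). Tags were recovered from fold and p-value within 0.001 for 100% of 4000 summits tried per library, which gave the depth estimate. This depth limits weak regions, and a region not listed is not shown to be closed.

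The strongest 80000 regions of 12 libraries (6 groups of 2 replicates) were merged at an overlap of 1 bp into consensus regions. Numbers of regions within 50 kb were compared with two-sided exact permutation tests (permuted within tissues for genotype), presence with Fisher's exact test and log2 fold of regions listed in all 12 libraries, centred on the library median, with limma 3.58.1 (R 4.3.3, Python 3.11.15, scipy 1.17.1). All p-values were adjusted by Benjamini-Hochberg over all genes or regions, with a threshold of 0.05. Replicates are pools of embryos from different litters. On simulated data for FB against limb (28404 regions), limma recovered 62 of 100 differences of 0.5 and 89 of 100 of 1 on the log2 scale, with 6 false calls.

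Regions named are those over each gene's own start, up to 2 others per gene found in most libraries, and those separated or changed between groups. The 10 genes and all lists were chosen with earlier results of these data known. Of 12 erythroid genes, 1 was not matched in the annotation. Values of some genes and of 1 separated region are not reported here. Alternatives were other list lengths, distances, a stricter q-value, other overlaps, the earlier wt DFL library, scalings, a replicate block (for numbers and presence added after seeing the data) and leaving out each library.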

Additional observations from a re-analysis of the deposited data

Results flagged for a closer look

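In groups of 4 libraries of a tissue, 17 of 144 values had 1 library farther from the others than Dixon's 95% critical gap ratio allows. Chance gives about 1 in 20, and a group of whole numbers with 3 ties passes by a difference of 1. Among numbers of regions in DFL, wt DFL replicate 2 had 6 near *Tal1* (others 8), 542 DFL replicate 1 had 11 near *Klf1* (others 10) and 4 near *Gata2* (others 5), and 542 DFL replicate 2 had 8 near *Cdh5* (others 7). In PFL, 542 PFL replicate 2 had 8 near *Tal1* (others 7) and 2 near *Kdr* (others 3), wt PFL replicate 1 had 6 near *Lmo2* (others 7) and 542 PFL replicate 1 had 9 near *Pecam1* (others 10). In FB, 542 FB replicate 2 had 8 near *Spi1* (others 6) and 4 near *Tek* (others 5), and wt FB replicate 1 had 4 near *Gata2* (others 5).

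Among folds of shared regions, 542 DFL replicate 1 was low at *Spi1* region 5 (17.1, others 19.8 to 20.3) and region 8 (14.9, others 15.7 to 15.8). *Klf1* region 3 was at 20.1 in 542 PFL replicate 1 (others 18.0 to 18.4) and at 16.3 in wt FB replicate 2 (others 20.3 to 20.9). In 542 FB replicate 2, *Pecam1* region 9 was at 11.3 (others 8.62 to 8.78) and *Tal1* region 7 at 7.78 (others 9.24 to 9.31).

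The summed number of regions near the 10 genes was higher in DFL than in PFL by 5.0 in wt and lower by 6 in 542, with no overlap in either genotype. Each genotype has only 2 libraries per tissue, this difference between genotypes was not tested, and its frequency over all genes was not counted.

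The earlier wt DFL library listed 9 regions near the 10 genes that no other library listed at any strength. All were weak, with folds of 2.25 to 3.23.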

How the results depend on the processing

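Between FB and limb, 2 of the 10 genes were called by number of regions. The count was 1 with all deposited regions and 1 within 20 kb (*Tek* each time), and 0 to 3 without 1 library. The 0 came without an FB library, where no gene of all tested passed, and the 3 without wt PFL replicate 1, which added *Sox17*. The genes called differed between settings: *Tal1* and *Klf1* with the strongest 50000 and at a −log10 q of at least 10, *Klf1*, *Gata2* and *Tek* with the strongest 20000, and *Klf1* and *Tek* within 100 kb. Of all genes, 3293 were called in the main run, 2240 with all deposited regions, 2275 within 20 kb and 5132 within 100 kb. With the strongest 50000 and 20000 it was 2600 and 1732, and at a −log10 q of at least 10 it was 2774. For the consensus regions below, shares over all regions were counted in the main run only. Of consensus regions in FB alone (5), 3 were left with all deposited regions, 3 with the strongest 20000, and 5 to 8 without 1 library. Of those in limb alone (4), 1 was left with the strongest 50000, 0 with the strongest 20000, 0 at a −log10 q of at least 10, 1 within 20 kb, 2 with a stricter overlap with the consensus region, and 4 to 5 without 1 library. In DFL alone (2), 1 was found within 20 kb, 0 with the earlier wt DFL library and 2 to 4 without 1 library. In PFL alone (2), 1 was found with the strongest 20000, 1 within 20 kb, 4 with windows of 500 bp, and 2 to 4 without 1 library.

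Of shared regions higher in FB (7), 13 were called without centring, 3 within 20 kb, 14 within 100 kb and 4 to 8 without 1 library. Of those higher in limb (5), 3 were called with quantile normalization, 3 without centring, 3 at a mean fold of at least 5, 9 within 100 kb and 3 to 5 without 1 library. Higher in DFL (2), 0 were called within 20 kb and 0 to 2 without 1 library, and higher in PFL (1), 0 without centring and 0 to 1 without 1 library. Omitting the centring moved the median FB difference of all shared regions from -0.03 to 0.14, and reversed *Pecam1* region 17 (0.16) and *Klf1* region 3 (0.0027). The replicate block gave 7 and 5 calls between FB and limb, 2 and 1 between DFL and PFL and 0 by genotype. The cause of these changes was not tested, except that fewer libraries or regions enter some runs. Same-numbered libraries did not deviate together in log2 fold of the shared regions (correlations of -0.0358 to 0.0159 over 15 pairs). Pairing by replicate number in the numbers of regions or in presence was not tested. Permutation within replicate numbers (a replicate block, chosen after seeing the data) gave 0 genes called by number and an adjusted exact p of 0.0567 for *Tek* and *Pecam1*, and an adjusted exact p of 0.0733 for the 9 regions separated between FB and limb. These were the smallest of any gene or region between FB and limb, so none passed under this block. All counts by genotype stayed at 0 in every run.

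Depth limits what is listed: 3 of the 4 FB libraries were deeper than every limb library, wt libraries were deeper than 542 libraries in DFL and in PFL but overlapped with them in FB, and the 542 reads were aligned to another genome.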
